A study of Mus musculus with 12 samples.

Results

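The genes described here move iron into and out of liver cells and carry it in plasma: Trf, Tfrc, Slc11a2, Slc40a1, Slc39a14, Slc39a8, Cp, Steap2, Steap3 and Steap4. They were found by their Ensembl identifiers, and 10 of the 10 were among the 27022 genes of the count table, each with reads in every library. The study asked how a whole transcript kit and a kit that reads the 3′ end of mRNA compare on the same liver RNA. All 6 mice were female SJL/J mice of 11 weeks, an inbred strain with no transgene, that had received an AIN-93G diet with 50 ppm iron since 3 weeks of age. The 3 control mice stayed on it, and the 3 iron-loaded mice had an AIN-93G diet with 2% carbonyl iron from 6 weeks of age. They were fasted and perfused with saline before the liver was taken, and RNA came from a piece of the large lobe. Mice were kept 4 to a cage, and each diet went to a single cage, so that the effects of diet and of cage cannot be told apart. From each mouse, 1 µg of RNA went into a library made with KAPA's stranded whole transcript kit (Trad-KAPA) and 1 µg into a library with the Lexogen QuantSeq 3′ kit (3’-LEXO), which gave 12 libraries in 4 groups of 3.

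Iron travels in plasma as ferric iron on transferrin (Trf), which hepatocytes secrete and which enters cells with the transferrin receptor (Tfrc). In the endosome the iron is reduced by Steap3, a ferrireductase, and leaves through Slc11a2 (DMT1), while iron that is not bound to transferrin is taken up from plasma mainly by Slc39a14 (ZIP14). Iron leaves cells through Slc40a1 (ferroportin), which the hormone hepcidin removes from the cell surface, and ceruloplasmin (Cp) oxidizes it for loading onto transferrin. Several of these mRNAs carry iron-responsive elements, short stem-loops bound by iron regulatory proteins when iron is scarce. Binding in a 5′ UTR blocks translation, and binding in a 3′ UTR protects the mRNA from decay.

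The stem-loops of Slc40a1 and Tfrc are shown because they place these mRNAs under opposite kinds of control. UTRs of the GENCODE M21 transcripts were searched on the sense strand for a loop of 6 bases, CAGTGN, between stems of 5 bases that can pair, G-U pairs included, with an unpaired C before the stem. By this rule Slc40a1 had 1 match in its 5′ UTR and Tfrc had 4 in its 3′ UTR, and the ferritin chains Fth1 and Ftl1, which store iron, each had 1 in the 5′ UTR. The sequences below are from GRCm38, 5′ to 3′, with the loop in capitals, and this reference is not the SJL/J genome of the mice.
Slc40a1, 5′ UTR, chr1:45925465-45925493, minus strand: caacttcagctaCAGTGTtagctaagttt
Tfrc, 3′ UTR, chr16:32631219-32631247, plus strand: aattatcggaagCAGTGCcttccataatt
Tfrc, 3′ UTR, chr16:32631598-32631626, plus strand: cattatcgggagCAGTGTcttccataatg
Tfrc, 3′ UTR, chr16:32631663-32631691, plus strand: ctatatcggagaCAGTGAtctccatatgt
Tfrc, 3′ UTR, chr16:32631710-32631738, plus strand: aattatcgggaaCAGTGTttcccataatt
Fth1, 5′ UTR, chr19:9982732-9982760, plus strand: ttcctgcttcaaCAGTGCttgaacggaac
Ftl1, 5′ UTR, chr7:45459779-45459807, minus strand: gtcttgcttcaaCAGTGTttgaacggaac
The paired bases next to the loop are the same in Fth1 and Ftl1 and differ among the 4 matches in Tfrc. Elements that do not meet this rule would be missed in these genes too. Such a match was found in the 5′ UTR of 31 of 20582 protein-coding genes (0.151%) and in the 3′ UTR of 129 of 20962 (0.615%). Tfrc was the 1 gene with at least 2 matches in a single 3′ UTR. No match was found in the UTRs of the other 8 genes, Slc11a2 included, which says only that no stretch there met this rule.

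The 6 Trad-KAPA libraries held 13834682 to 16553616 counts and the 6 3’-LEXO libraries 10724672 to 14104236. Levels are in CPM, which is reads per 1000000 counts of the library. The hepatocyte markers were present at summed levels of 127568 CPM or more in Trad-KAPA, with 0 of 9 undetected. The libraries of iron-loaded mouse 1 stood apart in both kits. The chi-square of their counts against those of iron-loaded mice 2 and 3, divided by its degrees of freedom, was 54.7 to 66.1, while it was 6.46 and 6.47 between mice 2 and 3. Between control mice it was 20.2 to 21.7 in Trad-KAPA and 28.4 to 39.8 in 3’-LEXO, so that mice 2 and 3 were also more alike than any controls. In Trad-KAPA, the summed hepatocyte markers of mouse 1 were 127568 CPM, below the 161172 and 165751 CPM of mice 2 and 3 and the 150646 to 164389 CPM of the controls. Most of this sum was Alb, at 9.31% of the counts of mouse 1 and 13.06% and 13.47% of those of mice 2 and 3. It was 11.95% to 13.24% in the controls, and the sum does not describe the other markers. The part of these differences in the results was not tested, and values are therefore also given without iron-loaded mouse 1.

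Diet effects were tested within each kit with edgeR's quasi-likelihood test, and a gene was called when its adjusted p was below 0.05 over all genes tested. With 3 mice per diet, these p-values measure the spread between mice that shared a cage. Cp and Slc40a1 rose on the iron-loaded diet in both kits, by 1.60-fold to 1.94-fold. Of the 10 genes, 2 rose, 0 fell and 8 were not called in Trad-KAPA, where 17.1% of 13151 genes were called and 8.77% were called higher. The numbers were the same in 3’-LEXO, where 6.10% of 13301 genes were called and 3.17% were called higher. By DESeq2, 2 rose and 0 fell in each kit as well, and at an unadjusted p below 0.05 edgeR gave 1 gene lower in Trad-KAPA (Steap3) and 0 in 3’-LEXO. The median log2 fold change of the 10 genes was -0.16 in Trad-KAPA and came to -0.06 in 3’-LEXO, beside 0.02 and 0.01 for all genes tested. Without iron-loaded mouse 1, Cp and Slc40a1 were again called higher in each kit, and Slc11a2 was called lower in Trad-KAPA. In that fit, 20.8% of 13446 genes were called in Trad-KAPA and 6.37% of 13670 in 3’-LEXO.

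**Figure D1:**
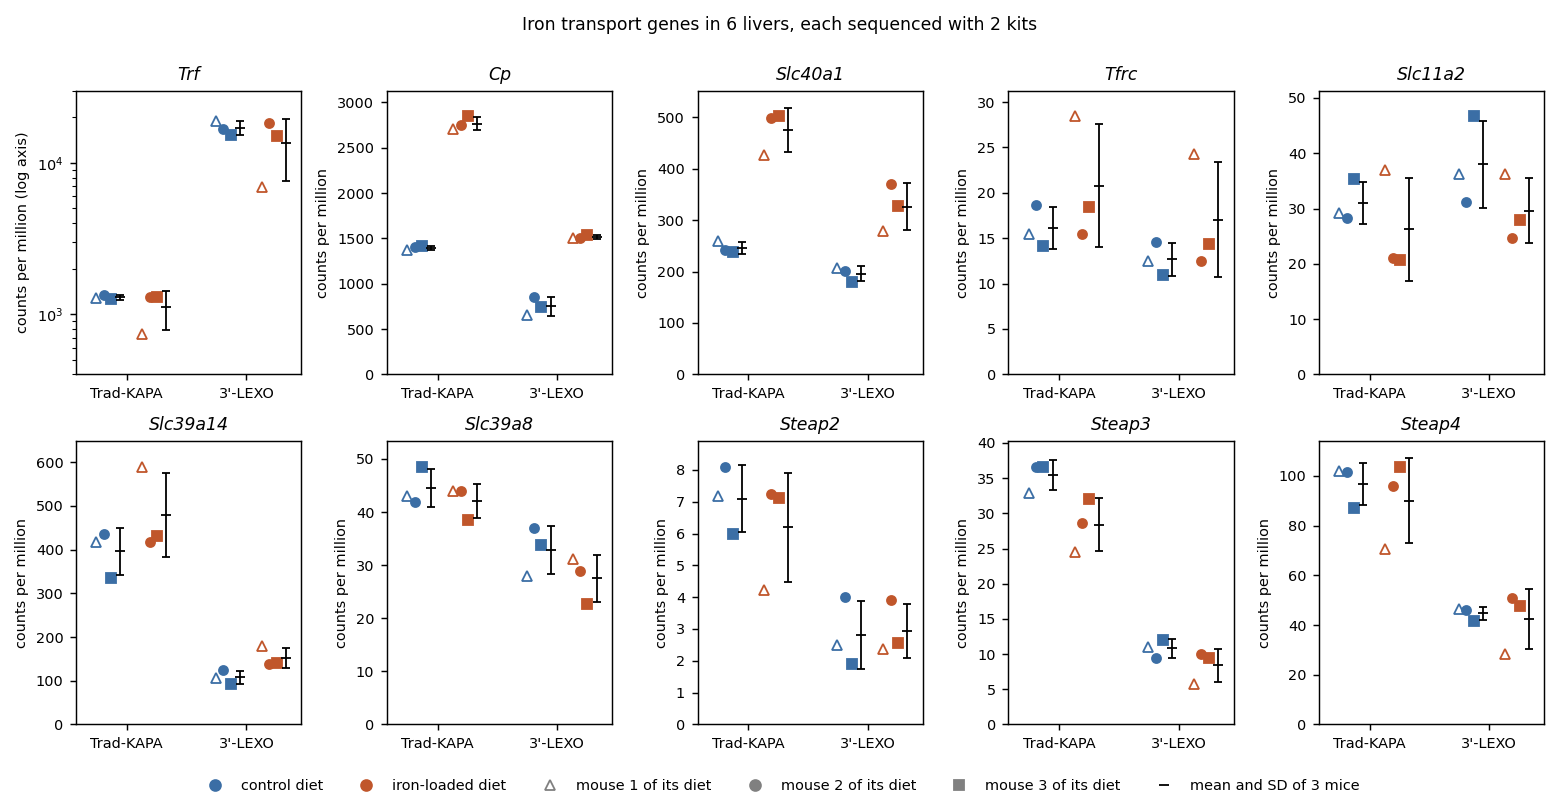
CPM of each gene (vertical axis, on a log scale for Trf only) in Trad-KAPA and 3’-LEXO, with blue points for the 3 control mice and orange points for the 3 iron-loaded mice. Open triangles are mouse 1 of each diet, and black bars are the mean and SD of 3 mice. The diets are separate in both kits for Cp and Slc40a1, and iron-loaded mouse 1 lies away from the other iron-loaded mice for Trf, Tfrc, Slc39a14 and Steap4.

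Cp, the plasma ferroxidase (ENSMUSG00000003617, chr3:19957054-20009145, plus strand), had 1375, 1399 and 1414 CPM in the control mice and 2703, 2752 and 2845 CPM in the iron-loaded mice in Trad-KAPA. In 3’-LEXO it had 650, 853 and 747 CPM in the controls and 1502, 1506 and 1537 CPM in the iron-loaded mice. The diets did not overlap in either kit, and within each iron-loaded group the mice lay close together. Its log2 fold change was 0.92 ± 0.13 (SE, 1.89-fold) in Trad-KAPA (edgeR adjusted p = 0.00494) and 0.96 ± 0.17 (1.94-fold) in 3’-LEXO (adjusted p = 0.0138). In 3’-LEXO, the adjusted p was 0.0532 without control mouse 1, 0.0604 without control mouse 3 and 0.0572 without iron-loaded mouse 3, at log2 fold changes of 0.85 to 0.98. Hps3 lies on the opposite strand and overlaps Cp, but it had 1805 counts over all 12 libraries, and whether the counting used strand was not stated. In bulk liver RNA, a change in the number of cells that express a gene and a change in its RNA per cell cannot be told apart.

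Cp is also known as an acute-phase protein of the liver, so the acute-phase genes stand beside it. Of 19 such genes, Cp included, 5 rose and 3 fell in Trad-KAPA, and 4 rose and 3 fell in 3’-LEXO, with 7 called in both kits. DESeq2 called 5 higher and 3 lower in each kit. Apcs, a pentraxin of plasma, rose from 243 ± 41.8 CPM (SD, n = 3) to 882 ± 139 CPM in Trad-KAPA and from 423 ± 72.2 to 1493 ± 84.9 CPM in 3’-LEXO (edgeR adjusted p = 0.00143 and 0.000835). The serum amyloid genes went the other way: Saa1 fell from 741 ± 505 to 68.1 ± 38.9 CPM in Trad-KAPA and from 4948 ± 3495 to 603 ± 351 CPM in 3’-LEXO (adjusted p = 0.0123 and 0.0208). Saa2 is a close copy of Saa1, and reads that map to both would be left out of counts of uniquely mapped reads. Saa2 fell from 377 ± 269 to 32.1 ± 16.2 CPM and from 813 ± 501 to 89.2 ± 53.2 CPM (adjusted p = 0.00988 and 0.0155). Orm3, an orosomucoid, fell from 15.7 ± 6.98 to 3.61 ± 1.28 CPM and from 47.0 ± 12.1 to 12.7 ± 4.13 CPM (adjusted p = 0.0131 and 0.00677). The list thus held genes that rose and genes that fell, and its median log2 fold change was 0.05 in Trad-KAPA and came to 0.17 in 3’-LEXO. In 3’-LEXO the calls of Saa1 (adjusted p = 0.0619 and 0.0545) and Saa2 (0.0509 and 0.0564) were lost without control mouse 1 or 2, and in Trad-KAPA that of Orm3 without control mouse 3 (0.0513). Neutrophil markers, which accompany inflammation, summed to 0.940 to 1.99 CPM in the controls and 4.21 to 7.45 CPM in the iron-loaded mice in Trad-KAPA. In 3’-LEXO the sums were 7.94 to 19.4 and 26.2 to 60.3 CPM. Of the 5 markers, only 2 in Trad-KAPA and 3 in 3’-LEXO had enough reads to be tested, and 2 rose in each kit. None of the 5 was at 0 in all libraries of a kit, and their part in the change of Cp was not tested.

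Slc40a1, the iron exporter (ENSMUSG00000025993, chr1:45908068-45926523, minus strand), had 259, 242 and 237 CPM in the controls and 427, 498 and 502 CPM in the iron-loaded mice in Trad-KAPA. In 3’-LEXO it had 207, 201 and 180 CPM in the controls and 280, 371 and 327 CPM in the iron-loaded mice. All iron-loaded mice were above all controls, and iron-loaded mouse 1 was the lowest of its group in both kits. The log2 fold change was 0.89 ± 0.13 (SE, 1.85-fold) in Trad-KAPA (edgeR adjusted p = 0.00541) and 0.68 ± 0.16 (1.60-fold) in 3’-LEXO (adjusted p = 0.0411). Without iron-loaded mouse 1 it rose to 0.99 in Trad-KAPA and to 0.79 in 3’-LEXO (adjusted p = 0.000381 and 0.00847). The call in 3’-LEXO was lost without each of the other mice, at log2 fold changes of 0.55 to 0.71, with adjusted p of 0.107, 0.113 and 0.138 without control mice 1, 2 and 3, and 0.105 and 0.125 without iron-loaded mice 2 and 3, and it was lost with upper quartile scaling (0.0516).

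Kupffer cells, the resident macrophages of the liver, recycle iron from red cells and are known to express Slc40a1. Their 10 markers summed to 463 to 729 CPM in the controls and 822 to 894 CPM in the iron-loaded mice in Trad-KAPA, where 2 of the 10 rose and 0 fell, and 6 were higher at an unadjusted p below 0.05 in edgeR. In 3’-LEXO they summed to 1089 to 1459 CPM and 1442 to 1673 CPM, which overlapped, and 1 rose and 0 fell. None of the Kupffer markers was at 0. The part of Kupffer cells in the change of Slc40a1 was not tested.

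Trf, transferrin itself (ENSMUSG00000032554, chr9:103204001-103230444, minus strand), had 1274, 1342 and 1261 CPM in the controls and 735, 1291 and 1295 CPM in the iron-loaded mice in Trad-KAPA. In 3’-LEXO the values were 19007, 16828 and 15378 CPM in the controls and 6965, 18468 and 15150 CPM in the iron-loaded mice. Iron-loaded mice 2 and 3 were within or next to the control range, and mouse 1 was far below it in both kits. The log2 fold change was -0.28 ± 0.23 (SE) in Trad-KAPA and -0.38 ± 0.34 in 3’-LEXO (edgeR adjusted p = 0.416 and 0.515), and it was -0.04 and -0.06 without mouse 1. The differences between the diets thus rested on mouse 1. The annotation also has a read-through gene, Gm20425, over Trf on the same strand, and it was not analysed here.

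Tfrc, the transferrin receptor (ENSMUSG00000022797, chr16:32608920-32632794, plus strand), was at 15.5, 18.7 and 14.2 CPM in the controls and at 28.4, 15.4 and 18.5 CPM in the iron-loaded mice in Trad-KAPA. The 3’-LEXO values were 12.5, 14.6 and 10.9 CPM and 24.3, 12.5 and 14.4 CPM. Again mouse 1 was apart, here above the other 5 mice in both kits, and mice 2 and 3 were within the control range. The log2 fold change was 0.29 ± 0.20 (SE) in Trad-KAPA and 0.37 ± 0.23 in 3’-LEXO (edgeR adjusted p = 0.346 and 0.348). Without mouse 1 it was 0.04 and 0.05, so that for the mRNA that carries the 4 stem-loops shown above no call was made in either kit. Red cell precursors carry much transferrin receptor, and the erythroid markers summed to 32.4 to 164 CPM in the controls and 29.6 to 45.9 CPM in the iron-loaded mice in Trad-KAPA. In 3’-LEXO they summed to 176 to 1224 CPM and 127 to 223 CPM, with 1 of 7 tested called lower in Trad-KAPA and 0 of 7 in 3’-LEXO by edgeR (5 at an unadjusted p below 0.05, and 2 called lower by DESeq2). Their part in the levels of Tfrc was not tested.

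**Figure D2:**
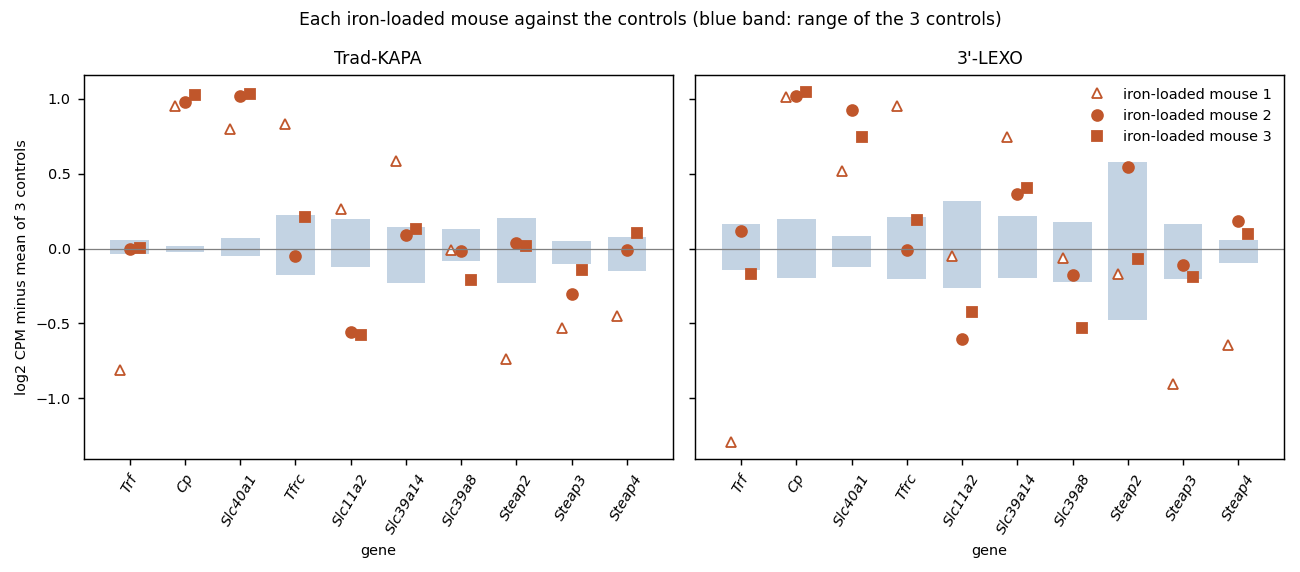
Log2 CPM of each iron-loaded mouse minus the mean of the 3 controls (vertical axis) for the 10 genes in Trad-KAPA (left) and 3’-LEXO (right), with open triangles for mouse 1, filled circles for mouse 2 and filled squares for mouse 3. Blue bands show the range of the 3 controls, and mouse 1 is outside the other mice on the same side in both kits for Trf, Tfrc, Slc39a14, Steap3 and Steap4.

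Slc11a2, the endosomal iron importer (ENSMUSG00000023030, chr15:100387898-100425072, minus strand), had 29.2, 28.3 and 35.4 CPM in the controls and 37.0, 20.97 and 20.7 CPM in the iron-loaded mice in Trad-KAPA. The 3’-LEXO values were 36.2, 31.2 and 46.7 CPM and 36.2, 24.7 and 28.0 CPM. Iron-loaded mice 2 and 3 were below the 3 controls in both kits, and mouse 1 was the highest of all in Trad-KAPA. With all mice the log2 fold change was -0.32 ± 0.22 (SE) in Trad-KAPA and -0.43 ± 0.20 in 3’-LEXO (edgeR adjusted p = 0.319 and 0.221). Without iron-loaded mouse 1 it was -0.61 ± 0.13 in Trad-KAPA, where the gene was then called lower (adjusted p = 0.0154), and -0.58 ± 0.20 in 3’-LEXO (adjusted p = 0.113). Slc11a2 is known to have transcripts with and without an iron-responsive element, and counts per gene do not separate them.

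The ZIP importers did not pass the test in either kit. Slc39a14 (ENSMUSG00000022094, chr14:70303469-70351425, minus strand) had 417, 435 and 335 CPM in the controls and 590, 418 and 431 CPM in the iron-loaded mice in Trad-KAPA, and the diets overlapped. In 3’-LEXO it had 105, 124 and 93.4 CPM and 179, 138 and 142 CPM, and there the diets did not overlap. Its log2 fold change was 0.21 ± 0.15 (SE) in Trad-KAPA and 0.45 ± 0.15 in 3’-LEXO (edgeR adjusted p = 0.361 and 0.108). Slc39a8, which also imports zinc and manganese (ENSMUSG00000053897, chr3:135825279-135888572, plus strand), ranged from 38.5 to 48.6 CPM over the 6 mice in Trad-KAPA and from 22.6 to 36.9 CPM in 3’-LEXO. Its log2 fold change was -0.15 ± 0.12 and -0.31 ± 0.17 (adjusted p = 0.394 and 0.269), the diets overlapped in both kits, and iron-loaded mouse 3 was the lowest mouse in both.

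The Steap genes encode membrane reductases for iron and copper. Steap3, the endosomal ferrireductase (ENSMUSG00000026389, chr1:120190757-120272705, minus strand), had 32.9, 36.6 and 36.6 CPM in the controls and 24.5, 28.6 and 31.98 CPM in the iron-loaded mice in Trad-KAPA. The diets did not overlap there, with the iron-loaded mice below, but the log2 fold change of -0.39 ± 0.14 (SE) was not called (edgeR adjusted p = 0.0851). In 3’-LEXO the values were 11.1, 9.37 and 12.1 CPM and 5.75, 9.98 and 9.45 CPM, the diets overlapped, and the log2 fold change was -0.43 ± 0.25 (adjusted p = 0.305). Without mouse 1 it was -0.26 and -0.20.

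Steap4 (ENSMUSG00000012428, chr5:7960457-7982213, plus strand) had 102, 102 and 87.2 CPM in the controls and 70.7, 95.8 and 104 CPM in the iron-loaded mice in Trad-KAPA, and 46.4, 45.9 and 41.8 CPM and 28.5, 50.8 and 47.8 CPM in 3’-LEXO. Mouse 1 was the lowest of all mice in both kits, and mice 2 and 3 were within or just above the control range. The log2 fold change was -0.17 ± 0.16 (SE) and -0.13 ± 0.22 (edgeR adjusted p = 0.502 and 0.757), and without mouse 1 its direction turned, at 0.01 and 0.10. Steap2 (ENSMUSG00000015653, chr5:5664829-5694578, minus strand) was the gene with the fewest reads, with 59 to 121 per library in Trad-KAPA and 27 to 56 per library in 3’-LEXO. Its levels of 4.21 to 8.10 CPM and 1.91 to 4.01 CPM overlapped between the diets, and the log2 fold changes were -0.26 ± 0.24 and 0.02 ± 0.33 (adjusted p = 0.487 and 0.982). They were -0.02 in Trad-KAPA and 0.17 in 3’-LEXO without mouse 1.

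**Figure D3:**
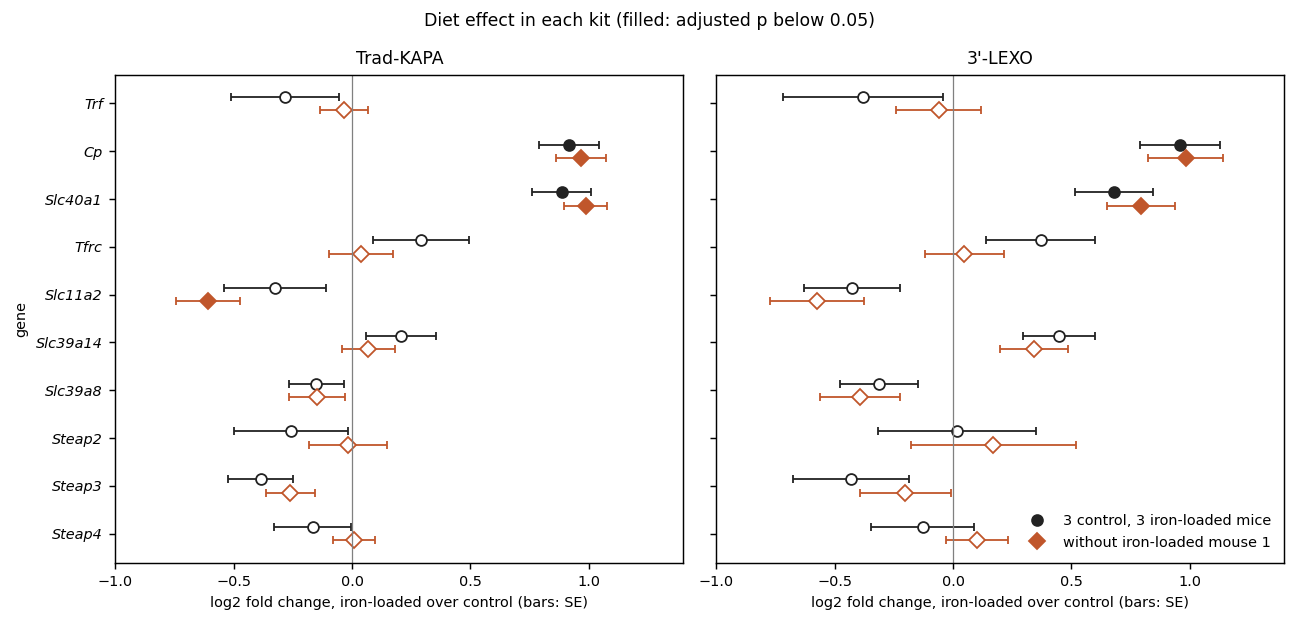
Log2 fold change of the iron-loaded over the control diet (horizontal axis, bars are SE) for the 10 genes in Trad-KAPA (left) and 3’-LEXO (right), with black circles for all mice and orange diamonds without iron-loaded mouse 1. Filled symbols have an adjusted p below 0.05, which holds for Cp and Slc40a1 in both kits and both fits and for Slc11a2 in Trad-KAPA without mouse 1.

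Counted over the 10 genes, the diets did not overlap for 3 in Trad-KAPA (Cp and Slc40a1 above, Steap3 below) and for 3 in 3’-LEXO (Cp, Slc40a1 and Slc39a14, all above). Of all genes tested, 41.2% did not overlap in Trad-KAPA and 31.3% in 3’-LEXO. Iron-loaded mouse 1 was outside the range of the other 5 mice, on the same side in both kits, for 5 of the 10 genes, above for Tfrc and Slc39a14 and below for Trf, Steap3 and Steap4. The same held for 34.9% of 14384 genes, a count made after the values had been seen. The mouse had 1.68 times the Tfrc level of the mean of iron-loaded mice 2 and 3 in Trad-KAPA and 1.81 times in 3’-LEXO. Its Trf was 0.569 and 0.414 times theirs, and its Steap4 0.708 and 0.578 times. For Cp the ratios were 0.966 and 0.987, the closest to 1 among the 10 genes in either kit. Both libraries of a mouse come from the same RNA, so that the kits are repeat measurements of it and not separate mice.

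Whether the diet effect differed between the kits was tested with an interaction term in a fit of all 12 libraries. The log2 differences of the 10 genes, 3’-LEXO minus Trad-KAPA, lay between -0.21 for Slc40a1 and 0.27 for Steap2, with SE from 0.18 to 0.44. None of the 10 was called, and of 14384 genes 0% were called by edgeR, with 402 at an unadjusted p below 0.05 and 0 called by DESeq2. With the mouse as a block, 5 genes were called, none of them among the 10, and 1026 of 14384 had an unadjusted p below 0.05. For Cp the difference was 0.04 ± 0.18 (SE) and for Slc40a1 -0.21 ± 0.20. The block uses that both libraries of a mouse share RNA, and with it the SE fell from 0.44 to 0.14 for Trf, from 0.33 to 0.16 for Tfrc and from 0.42 to 0.29 for Steap2. The log2 differences were then -0.16 for Trf, 0.07 for Tfrc and 0.31 for Steap2. Of the 10 genes, 1 had an unadjusted p below 0.05 with the block, Slc39a14, at 0.25 ± 0.11 (edgeR adjusted p = 0.666).

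The kits gave different levels for most of these genes. The ratio of the CPM in 3’-LEXO to that in Trad-KAPA was taken for each mouse and tested by an exact permutation of its sign among the 6 mice (two-sided). With 6 mice no p below 0.03125 is possible, and 9 of the 10 genes tested had this p. Trf was higher in 3’-LEXO in 6 of 6 mice, with a log2 ratio of 3.63 ± 0.23 (SD, n = 6), or 12.4-fold. Its 266018 counts were 1.90% of the library of control mouse 1 in 3’-LEXO, while 21083 counts were 0.127% in Trad-KAPA. Only 434 of 14384 genes had a higher mean ratio, and the median of all genes was 0.0147. The read-through gene Gm20425 overlaps exons of Trf on the same strand and was not in the count table. How reads that fit both genes were counted is not stated, and their part in the ratio of Trf was not tested.

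The other 8 genes that reached this p were lower in 3’-LEXO in 6 of 6 mice. The log2 ratio was -1.76 ± 0.15 (SD, n = 6) for Slc39a14, -1.75 ± 0.23 for Steap3, -1.22 ± 0.36 for Steap2, -1.11 ± 0.13 for Steap4 and -0.89 ± 0.12 for Cp. It was -0.53 ± 0.20 for Slc39a8, -0.44 ± 0.15 for Slc40a1 and -0.32 ± 0.06 for Tfrc. Slc11a2 was higher in 3’-LEXO in 5 of 6 mice, at 0.25 ± 0.17 (exact permutation p = 0.0625). The lowest ratios were thus those of Slc39a14 and of the 3 Steap genes. A kit ratio with the same sign in 6 of 6 mice was found for 75.5% of 14384 genes. The study reports that read counts rose with transcript length in Trad-KAPA and did not change significantly with it in 3’-LEXO. By longest transcript, Steap2 (10408 bp), Steap3 (5158 bp) and Slc39a14 (5117 bp) were the longest and had the lowest ratios. Trf was the shortest (2571 bp) with the highest ratio, and Steap4 the next shortest (3155 bp) with a log2 ratio of -1.11. The study took as length the sum of a gene's exons. By merged exons the order differed, with Steap2 (12144 bp), Slc39a14 (10550 bp), Cp (9566 bp) and Slc40a1 (9000 bp) the longest. Steap3 (5715 bp) was then shorter than all but Trf (3320 bp) and Steap4 (3155 bp), and Steap4 was the shortest. The part of length in these ratios was not tested. Which exons the 3′ reads fell on was not analysed here.

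**Figure D4:**
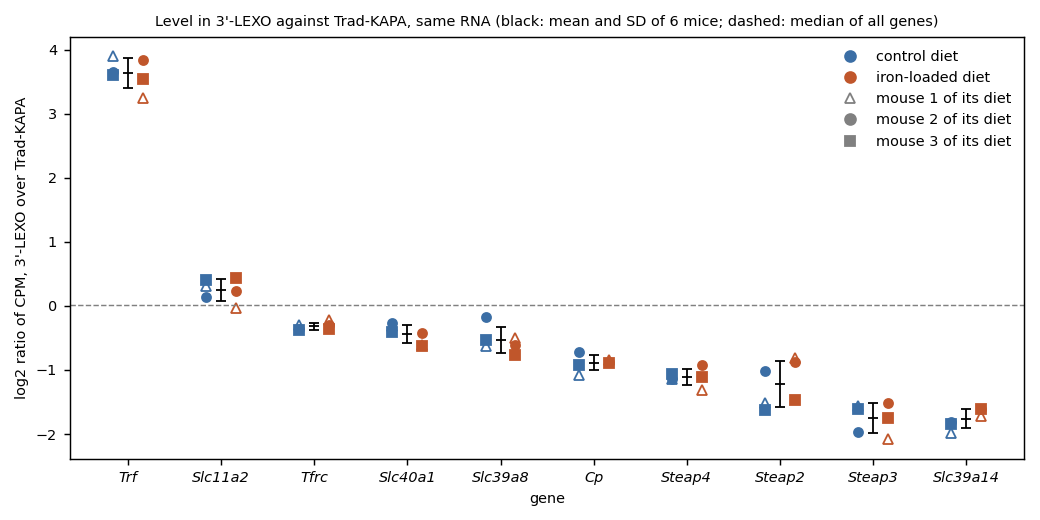
Log2 ratio of the level in 3’-LEXO to that in Trad-KAPA (vertical axis) for each gene, with a point per mouse, blue for control and orange for iron-loaded, and black bars for the mean and SD of 6 mice. The dashed line is the median of all genes at 0.0147, and Trf lies at 3.63 while the others lie between -1.76 and 0.25.

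Levels of different genes were compared only per length, in Trad-KAPA, as CPM per kb of merged exons (RPKM). Transferrin was the highest at 361 ± 69.0 RPKM (SD, n = 6), and ceruloplasmin followed at 218 ± 78.6 RPKM. Their ranges overlapped, since Trf in iron-loaded mouse 1 had 221 RPKM and Cp in the iron-loaded mice had up to 297 RPKM. Below them came Slc39a14 at 41.5 ± 7.88, Slc40a1 at 40.1 ± 14.3 and Steap4 at 29.6 ± 4.03 RPKM, whose ranges also overlapped from each to the next. Lower still were Slc39a8 at 5.65 ± 0.430, Steap3 at 5.58 ± 0.827, Slc11a2 at 4.50 ± 1.09 and Tfrc at 2.98 ± 0.842 RPKM. Steap2 was the lowest at 0.547 ± 0.113 RPKM. The ranges were apart at 3 steps, between Cp and Slc39a14 (5.25-fold), between Steap4 and Slc39a8 (5.25-fold) and between Tfrc and Steap2 (5.45-fold). By merged exons, the order of the means within these levels changed with the diet, though the ranges of Steap3 and Slc39a8 overlapped on each diet. On the control diet Slc39a14 had 37.5 ± 5.05, Steap4 30.7 ± 2.67 and Slc40a1 27.3 ± 1.25 RPKM (SD, n = 3), and Steap3 at 6.19 ± 0.376 came before Slc39a8 at 5.80 ± 0.468 RPKM. On the iron-loaded diet Slc40a1 had 52.8 ± 4.67, Slc39a14 45.5 ± 9.07 and Steap4 28.6 ± 5.48 RPKM, and Slc39a8 at 5.50 ± 0.414 came before Steap3 at 4.96 ± 0.657 RPKM. With the longest transcript as the length, the order was taken over the 6 mice and not by diet. Slc40a1 then came before Slc39a14 and Slc11a2 before Steap3, and the rest of the order was the same. Levels moved by over 1.5 times for Cp (456 RPKM by that length), Slc40a1 (91.8), Slc39a14 (85.5) and Slc39a8 (10.3), and Trf, at 467 RPKM, was then close to Cp. The level of Trf also depends on how reads shared with Gm20425 were counted, which is not known.

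**Figure D5:**
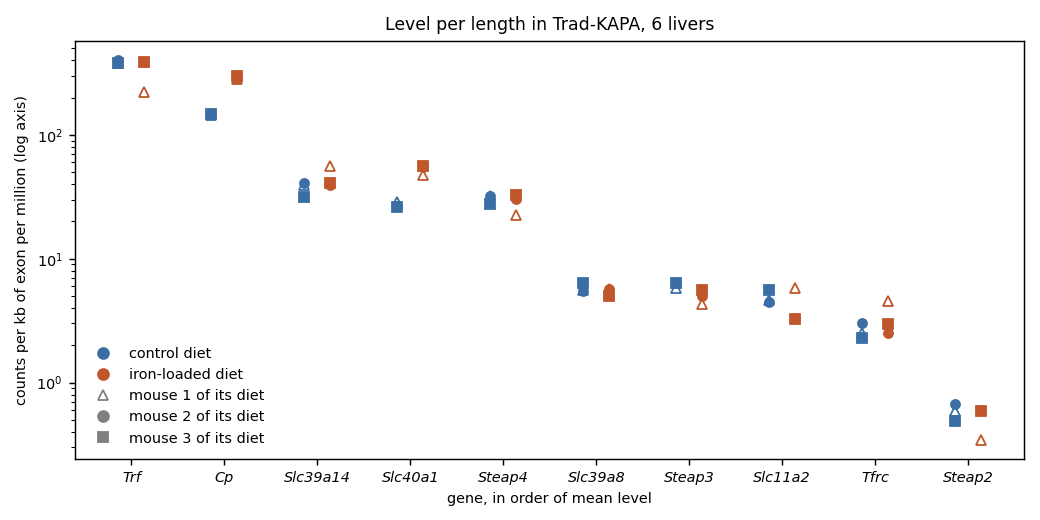
Level per length in Trad-KAPA, in CPM per kb of merged exons (vertical log axis), for the 10 genes in order of their mean over 6 mice, with blue points for control and orange points for iron-loaded mice and open triangles for mouse 1. The ranges of neighbours overlap except after Cp, after Steap4 and after Tfrc.

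Genes around this system were counted in the same fits. Of 20 relatives of the 10 genes (other transferrins, Tfr2, Slc11a1, Heph, Steap1, Cybrd1 and other ZIP transporters), edgeR called 0 of the 14 tested in Trad-KAPA, where 2 had an unadjusted p below 0.05 and DESeq2 called 0. In 3’-LEXO it called 0 of 13, where 4 had an unadjusted p below 0.05 and DESeq2 called 1. Their median log2 fold change was 0.13 in both kits. Steap1 had no read in Trad-KAPA. Without iron-loaded mouse 1, 1 of them was called in Trad-KAPA, the zinc importer Slc39a4, at an adjusted p of 0.00393.

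Of 18 other genes of iron and heme transport, 3 rose and 1 fell among 18 tested in Trad-KAPA, and 1 rose among 17 tested in 3’-LEXO. DESeq2 called 4 higher and 1 lower in Trad-KAPA, and 3 higher and 1 lower in 3’-LEXO. Lcn2, which binds iron-carrying siderophores, was called in both kits, rising from 39.3 ± 15.7 CPM (SD, n = 3) to 124 ± 26.1 CPM in Trad-KAPA (edgeR adjusted p = 0.0103) and from 16.3 ± 5.84 to 40.1 ± 2.93 CPM in 3’-LEXO (adjusted p = 0.0169). The others called in Trad-KAPA, named after their values were seen, were the heme scavenger Hpx and the efflux pump Abcg2, which rose, and the heme and folate transporter Slc46a1, which fell. The median log2 fold change of this list was 0.27 in Trad-KAPA and came to 0.16 in 3’-LEXO. Without control mouse 3, Lcn2 was not called in 3’-LEXO (adjusted p = 0.079).

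Among 17 genes of iron sensing and storage, 2 rose and 3 fell of 17 tested in Trad-KAPA, and 1 rose and 2 fell of 16 tested in 3’-LEXO. These counts stand beside 17.1% and 6.10% of all genes called in the 2 kits. By DESeq2, 2 of this list were higher and 4 lower in Trad-KAPA, and 1 was higher and 5 lower in 3’-LEXO. Hamp encodes hepcidin, the hormone that removes ferroportin. It had 515, 44.0 and 83.2 CPM in the controls and 1326, 1026 and 1070 CPM in the iron-loaded mice in Trad-KAPA (log2 fold change 2.36 ± 0.77, edgeR adjusted p = 0.0667). With 3’-LEXO the values were 528, 81.0 and 98.3 CPM and 1633, 1272 and 1350 CPM (2.53 ± 0.62, adjusted p = 0.0425). The diets did not overlap in either kit, and control mouse 1 was well above the other controls. Without it, Hamp was called in Trad-KAPA as well (adjusted p = 0.0038), and in 3’-LEXO its call was lost without control mouse 2 (0.107) or 3 (0.133) or iron-loaded mouse 2 (0.052) or 3 (0.0806). Hamp2 is a near copy of Hamp, and reads that map to both would be left out of counts of uniquely mapped reads. Hamp2 fell from 489 ± 220 to 145 ± 45.2 CPM in Trad-KAPA and from 1186 ± 494 to 408 ± 137 CPM in 3’-LEXO (adjusted p = 0.0148 and 0.0268). It was not called without control mouse 3 in either kit (0.0505 and 0.0743), nor in 3’-LEXO without control mouse 1 (0.0847) or iron-loaded mouse 3 (0.0716).

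Bmp6, a ligand that induces hepcidin when liver iron is high, rose from 3.37 ± 0.488 to 19.0 ± 2.64 CPM (SD, n = 3) in Trad-KAPA (edgeR adjusted p = 0.000505). In 3’-LEXO it had 1, 0 and 1 reads in the controls and 4, 1 and 3 in the iron-loaded mice, and was not tested there. The other genes of this list that were called, named after their values were seen, were Bmp2, which rose, and Bdh2 and Aco1, which fell, in Trad-KAPA, and Neo1, which fell, in 3’-LEXO. Aco1 encodes an iron regulatory protein. Of 8 mRNAs known to hold iron-responsive elements (Slc40a1, Tfrc and Slc11a2 among them), only Slc40a1 was called in each kit with all mice, and the median of the list was -0.01 in Trad-KAPA and came to 0.04 in 3’-LEXO.

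Markers of other cells were counted as well. In Trad-KAPA, endothelial markers summed to 275 to 371 CPM in the controls and 328 to 407 CPM in the iron-loaded mice, stellate markers to 262 to 404 and 328 to 361 CPM, and lymphocyte markers to 4.12 to 9.54 and 5.43 to 7.91 CPM. These ranges overlapped between the diets. Of 7 endothelial markers tested in Trad-KAPA, 2 were called higher and 0 lower. Of 7 stellate markers tested, 1 was called lower in Trad-KAPA and 0 in 3’-LEXO. In 3’-LEXO, lymphocyte markers summed to 3.05 to 6.43 and 3.64 to 6.29 CPM, and stellate markers to 463 to 497 CPM in the controls and 416 to 453 CPM in the iron-loaded mice, without overlap. Biliary markers, of which 3 were tested, summed to 23.7 to 26.5 and 33.5 to 39.0 CPM in Trad-KAPA and to 30.2 to 37.4 and 43.4 to 44.2 CPM in 3’-LEXO, which did not overlap, and 1 rose in each kit. In 3’-LEXO, endothelial markers summed to 322 to 405 CPM in the controls and 286 to 302 CPM in the iron-loaded mice, with 1 called higher and 1 called lower.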

How the data were processed

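RNA-Seq was done on liver RNA of 6 mice, 3 per diet, with 2 kits. The authors mapped reads of 50 bp with STAR 2.5.3a to GRCm38 and deposited, as raw counts, how many uniquely mapped reads fell on the exons of every gene, and the counting program is not given in the sources used here. Reads were not deduplicated, so that counting precision is the best case. Ensembl identifiers were matched to symbols, lengths and UTRs of GENCODE M21, which held 26949 of the 27022 identifiers.

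Diet effects were tested on these counts within each kit with the quasi-likelihood test of edgeR 4.0.16 in R 4.3.3 with limma 3.58.1. Genes were filtered with filterByExpr, libraries were scaled by TMM, and p-values were adjusted after Benjamini and Hochberg over all genes tested, with a threshold of 0.05. SE is the log2 fold change divided by the square root of F. All 10 genes passed the filter in both kits. The fits were also run on simulated counts with the same spread for all genes and no outlying mouse. No result here rests on that run. For kit ratios, 0.5 counts were added before the log2. DESeq2 1.42.0, size factors, filters, equal depth of 10 M counts (seed 20190107), blocks and leaving out each mouse were alternatives. Python 3.11.15, numpy 2.4.6, pandas 2.3.3, scipy 1.17.1 and matplotlib 3.10.9 were used.

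Libraries of a mouse in both kits were taken as paired because they share RNA: deviations from the group means correlated with r of 0.448 to 0.791 over 9311 genes. The 10 genes, the gene lists and the tests were chosen with earlier results of these data known. The genes named were the 10, at most 4 per list that were called in both kits and had the largest change in Trad-KAPA, Hamp and Bmp6. Slc39a4, Hpx, Abcg2, Slc46a1, Bmp2, Bdh2, Aco1 and Neo1 fall outside this rule and were named after their values were seen, to account for small counts. For cell markers only counts and summed levels are given.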

Additional observations from a re-analysis of the deposited data

How the results depend on the processing

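In Trad-KAPA, Cp and Slc40a1 were called under every alternative run, at log2 fold changes of 0.88 to 0.97 and 0.83 to 0.99. The number of genes called there was between 841 and 2803 when 1 mouse was left out, beside 2255. In 3’-LEXO, where 811 genes were called, the number was 1321 with DESeq2, 1959 with no filter, 1681 with all 12 libraries in the fit, and 199 to 871 when 1 mouse was left out. Of the 10 genes, 1 was called in 3’-LEXO with upper quartile scaling (Cp, while Slc40a1 had an adjusted p of 0.0516), and 0 to 2 when 1 mouse was left out. The replicate number is not stated to pair mice across diets, and deviations of same-numbered mice correlated with r of -0.169 to 0.102. With it as a replicate block, the calls numbered 1922 in Trad-KAPA and 436 in 3’-LEXO, where 1 of the 10 genes was called and Slc40a1 had an adjusted p of 0.0913. For the difference between the kits in diet effect, 5 genes were called with the mouse as a replicate block and 7 with no filter, in place of 0. Directions turned only where differences were small. With 1 mouse left out, the log2 fold change of Steap4 was between -0.28 and 0.0082 in Trad-KAPA and between -0.30 and 0.10 in 3’-LEXO, and that of Steap2 between -0.26 and 0.33 in 3’-LEXO, where it was also -0.021 with upper quartile scaling and -0.016 with no filter. The difference between the kits in diet effect then ranged from -0.24 to 0.029 for Trf, from -0.22 to 0.078 for Slc11a2, from -0.0095 to 0.14 for Cp, from -0.17 to 0.10 for Steap3 and from -0.049 to 0.14 for Steap4. Of the gene lists, with 1 mouse left out, 6 to 9 acute-phase genes were called in Trad-KAPA (4 to 7 in 3’-LEXO), 1 to 6 other transport genes (0 to 3), 2 to 5 genes of iron sensing and storage (0 to 4) and 0 to 1 relatives (0). The cause was not tested. All 90 alternative kit ratios stayed within 1 SD of the value reported. Steap2 had at most 56 reads per library in 3’-LEXO, which limits what can be seen.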
